A study of Gallus gallus with 100 samples.

Results

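The sex steroid receptor genes described here are ESR1 (estrogen receptor alpha), ESR2 (estrogen receptor beta) and PGR (progesterone receptor), taken by gene symbol from the 6 deposited tables of chicken pituitary RNA. They are 3 of the 18685 genes listed in at least 1 table. ESR2 and PGR were listed in all 6 tables, and ESR1 in every table except that of day 32.

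Estrogen and progesterone receptors are transcription factors of the nuclear receptor family. They bind steroid hormones made largely by the gonads, and the bound receptor acts at hormone response elements in DNA with the help of coactivators, corepressors and chaperones. In the pituitary, sex steroids feed back on the gonadotrophs, the cells that make luteinizing and follicle-stimulating hormone. In mammals estrogen is also a regulator of prolactin cells, and in many tissues PGR is itself a target of estrogen receptor alpha.

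The study describes the glands as whole pituitaries of individual male Ross 708 broilers, a fast-growing meat chicken, and each library came from a single bird. Birds were kept in 2 houses. The heat house was held at 35 to 37 °C for 8 hours a day (7 am to 3 pm) from day 21 after hatching, and the control house stayed at 25 °C. Values were available for 15 control birds at day 21. The heat house gave 13 birds with values at day 22, 5 at day 26, 6 at day 32, 5 at day 40 and 17 at day 42. For the same days the control house gave 10, 6, 6, 5 and 10 birds. Sample titles carry the tag 2 Hour at day 26, 4 Hour at day 32 and Week at day 40, for heat-stressed and control birds alike. What these tags time is not stated in the titles. Day 40 is not among the necropsy days of the stated design. Because each treatment had its own house, heat and house cannot be told apart, and the spread between birds does not cover differences between houses. Each day also had its own table, so bird age and the making of the table cannot be told apart. Marker genes, given below, differed strongly between day 42 and the earlier days. The tissue content of the libraries therefore cannot be told apart from age and table either.

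The values are FPKM, the number of fragments scaled by the length of the gene and by the mapped fragments of the library. The labelled tissue was checked against marker genes. The summed level of 7 anterior lobe hormone genes, of which 5 or 6 were listed per table and LHB never, ranged between 91286 and 235596 FPKM in heat-stressed glands and between 92182 and 214687 FPKM in control glands of day 42. In every library of days 21 to 40 it stayed between 1.98 and 1668 FPKM, and PRL was at 0 in 6 and FSHB in 8 of the 10 control glands of day 22. Summed myelin markers went the other way, with 22.4 to 114 FPKM in heat-stressed and 14.9 to 71.4 FPKM in control glands of day 42, against 9253 to 33706 FPKM and 11346 to 37106 FPKM in heat-stressed and control glands of day 22. Libraries labelled pituitary at days 21 to 40 thus held far less RNA of the hormones that define the anterior lobe than those of day 42. The level varied widely among these earlier libraries. At day 42, heat-stressed library 984 and control library 1012 listed the fewest genes at 1 FPKM or more, and the limma differences of ESR1 and PGR at that day are also given without them. In a whole gland, fewer cells of a type and less RNA per cell cannot be told apart.

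ESR1 (Entrez 396099) lay on chromosome 3 of galGal4 at 48327677 to 48431441 in the tables of days 21, 22, 26 and 40, and at 48257768 to 48436381 in that of day 42. The day 42 locus spanned 178614 bases, against 103765 bases at day 22, a ratio of 1.72. ESR2 (Entrez 395575) lay on chromosome 5 at 52910593 to 52952327 in every table. PGR (Entrez 396198) lay on chromosome 1 at 182429329 to 182467728, with an end up to 182467923 in the tables of days 21 and 40. No other listed gene overlapped any of them.

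ESR1 was close to the lower limit of detection in glands of days 21 to 40 and clearly present at day 42. In control glands it averaged 0.0916 ± 0.104 FPKM at day 21 (SD, n = 15) and 0.191 ± 0.121 FPKM at day 22 (n = 10). It averaged 0.0311 ± 0.0204 FPKM at day 26 (n = 6), 0.0589 ± 0.0733 FPKM at day 40 (n = 5) and 13.3 ± 7.66 FPKM at day 42 (n = 10). Heat-stressed glands gave 0.200 ± 0.180 FPKM at day 22 (n = 13), 0.0220 ± 0.0131 FPKM at day 26 (n = 5), 0.0288 ± 0.0183 FPKM at day 40 (n = 5) and 13.1 ± 8.05 FPKM at day 42 (n = 17). Both day 42 means therefore stood apart from those of every other group, while neighbors in the order of the earlier means lay within each other's spread.

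The low values could be read as fragments. In the tables of days 21 to 40 the ESR1 and ESR2 values under 15 steps lay within 0.043 of a whole multiple of a common step, scaled to the depth of the library, and no common step was found for PGR. For ESR1 the step was worth 0.0145 to 0.0227 FPKM in the deepest library of a day. On that scale the 23 libraries of day 22 held 171 ESR1 fragments, the 15 of day 21 held 50, the 10 of day 40 held 16 and the 11 of day 26 held 13. A library listed at 0 held no fragment, and 3 fragments, the limit that a count of 0 allows, correspond to 0.0784 to 0.0981 FPKM for the 8 such ESR1 values of days 21, 26 and 40. Most early ESR1 values therefore rest on a handful of fragments per gland.

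**Figure D1:**
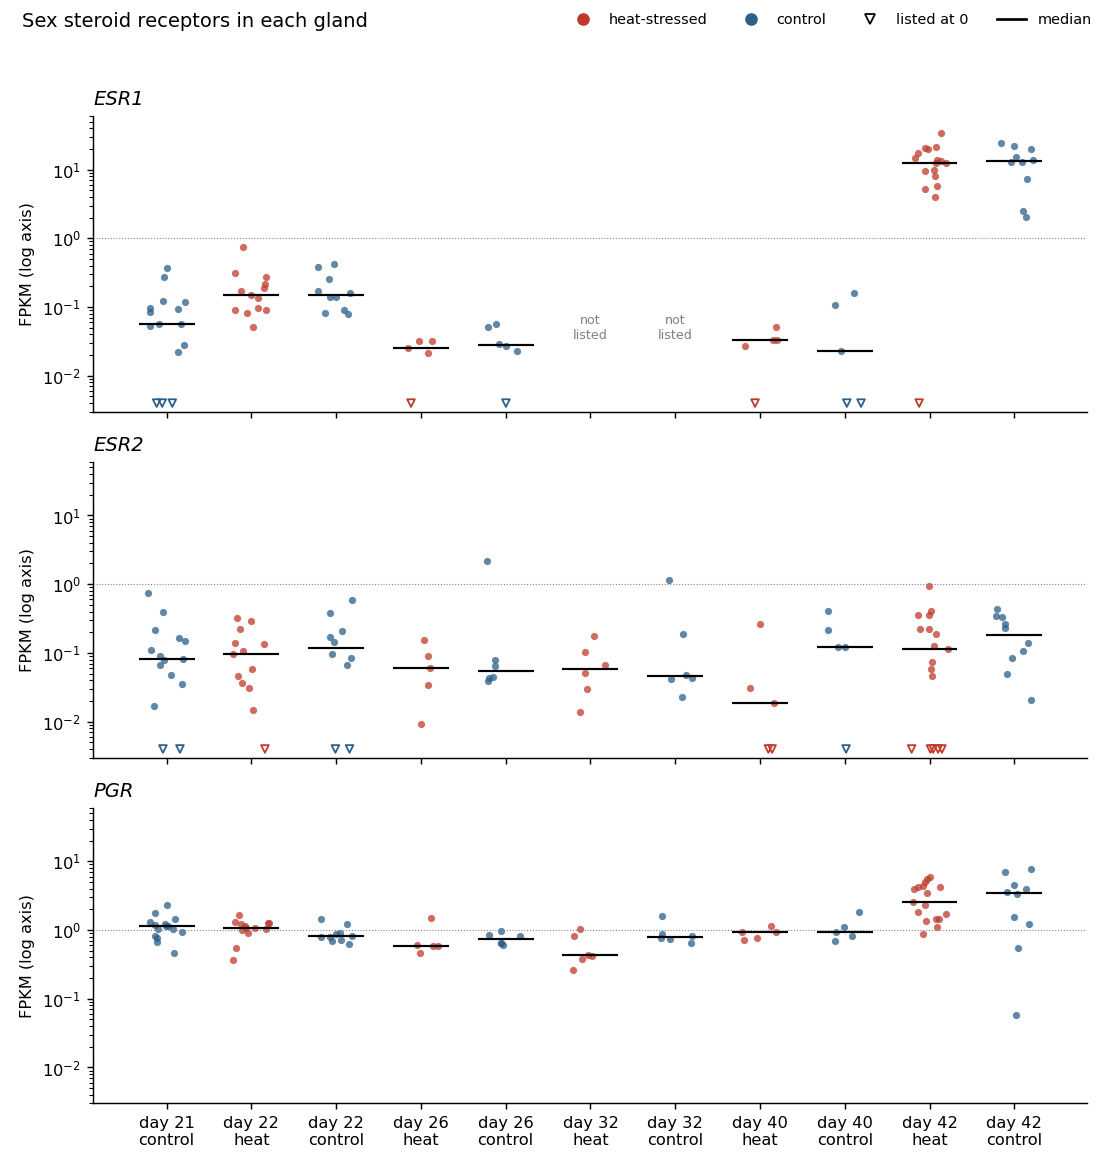
FPKM of ESR1, ESR2 and PGR (log axis) in each library, by day, with heat-stressed glands left of control glands and short lines at the group medians (values of 0 at the bottom edge, ESR1 without points at day 32). The ESR1 medians are 12.5 FPKM in heat-stressed and 13.5 FPKM in control glands of day 42, and at most 0.151 FPKM in any earlier group.

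At day 42 the individual glands were spread widely. In heat-stressed glands ESR1 had a lowest value of 0, a median of 12.5 and a highest value of 33.8 FPKM, and in control glands these were 2.06, 13.5 and 24.7 FPKM. The single 0 was library 984. Since EEF1A1, an elongation factor that all cells need, was also listed at 0 in 16 of the 27 libraries of that day, a 0 in that table is not evidence of absence. The next lowest heat-stressed gland had 3.98 FPKM.

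In control glands ESR1 was 69.7 times higher by ratio of mean FPKM at day 42 than at day 22, a difference of 3.31 in mean log2(FPKM + 1) (SE 0.32, 95% interval 2.65 to 3.97, limma adjusted p = 5.51e-09). All 10 control glands of day 42 lay above all 10 of day 22. Of 8301 genes tested, 33 percent were called (adjusted p under 0.05 and at least 2-fold), 12.8 percent as higher, and 5.36 percent had every day 42 gland above every day 22 gland. ESR1 ranked 92 among the 8301 by log2 difference.

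The same held beside the nearest earlier day and among heat-stressed birds. Against control glands of day 40, those of day 42 were higher by 3.48 (SE 0.45, limma adjusted p = 4.80e-06, ratio of means 226), again with no overlap, where 28.8 percent of 8744 genes were called, 11.2 percent as higher, and 5.96 percent had no overlap in this direction. Heat-stressed glands of day 42 were higher than those of day 22 by 3.25 (SE 0.31, limma adjusted p = 4.12e-11, ratio of means 65.4), where 32.4 percent of 8249 genes were called, 12.3 percent as higher, and 3.75 percent had no overlap in this direction. Here 16 of 17 glands of day 42 exceeded the highest gland of day 22, the exception being library 984, and without it the difference was 3.47. Without library 1012 the control differences of ESR1 were 3.53 against day 22 and 3.69 against day 40. The comparisons with day 22 control glands share those glands.

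The wider ESR1 locus at day 42 moved with this result, and its part in it was not tested. Among the 8301 genes, 382 had a locus at least 10 percent wider at day 42, and 31.7 percent of these were called higher and 9.95 percent lower. Among the 3923 genes with the same locus in both tables the shares were 13.1 percent higher and 18.7 percent lower. Within library numbers 1400 to 1500, the only numbers shared by control glands of both days, 6 glands of day 42 were higher than 2 of day 22 by 3.59 (exact permutation p = 0.0357, the smallest these numbers allow).

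Among the earlier days ESR1 had 3 differences with a permutation p under 0.05, at the scale of single fragments. These p-values were not adjusted over the 25 permutation tests of members. Control glands of day 26 were lower than those of day 22 by 0.20 in mean log2(FPKM + 1) (two-sided exact permutation p = 0.00362), with no overlap between the 6 and 10 glands. In this comparison 11.3 percent of 8026 genes were called and 10.1 percent had every day 26 gland below every day 22 gland. The median difference over all genes tested was -0.35. In a limma fit with no filter on low values ESR1 had an adjusted p of 0.0107, and the difference was under 2-fold on that scale, although the ratio of mean FPKM was 0.162. At day 22 it was 0.13 higher than at day 21 (permutation p = 0.0317), and at day 40 it was 0.17 lower than at day 22 (exact permutation p = 0.0353). In the limma fit with no filter these had adjusted p-values of 0.437 for day 22 against day 21 and 0.270 for day 40 against day 22, comparisons with 0.0643 percent of 7781 and 0.188 percent of 7967 genes called. Within library numbers of 1500 and above, the permutation p was 0.0667 (exact) for day 26 against day 22, 0.132 for day 22 against day 21 and 0.117 (exact) for day 40 against day 22.

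By group mean FPKM, a level per length, PGR was the most abundant of the 3 receptors in glands of days 21 to 40, and at day 42 it was below ESR1. Control glands averaged 1.15 ± 0.458 FPKM at day 21 (n = 15), 0.890 ± 0.252 at day 22 (n = 10), 0.757 ± 0.140 at day 26 (n = 6), 0.911 ± 0.346 at day 32 (n = 6), 1.08 ± 0.450 at day 40 (n = 5) and 3.33 ± 2.56 FPKM at day 42 (n = 10). Heat-stressed glands averaged 1.07 ± 0.332 FPKM at day 22 (n = 13), 0.745 ± 0.419 at day 26 (n = 5), 0.561 ± 0.303 at day 32 (n = 6), 0.901 ± 0.159 at day 40 (n = 5) and 3.03 ± 1.68 FPKM at day 42 (n = 17). Both day 42 means were above every earlier group mean, and their own spread was wide.

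In control glands of day 42 the lowest PGR value was 0.0574 FPKM in library 1012, the median 3.42 and the highest 7.62 FPKM. In heat-stressed glands of day 42 these were 0.863, 2.55 and 5.98 FPKM. The day 22 glands reached at most 1.66 FPKM in the heat house and 1.44 FPKM in the control house. Of the day 42 glands, 12 of 17 heat-stressed and 7 of 10 control glands exceeded the highest gland of their own treatment at day 22, so the groups overlapped.

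PGR missed the call between days by its size. Control glands of day 42 were higher than those of day 22 by 0.93 (SE 0.30, 95% interval 0.31 to 1.55, limma adjusted p = 0.0116), 3.74 times by ratio of mean FPKM but under 2-fold on the log2(FPKM + 1) scale, which understates the change of low genes. Heat-stressed glands of day 42 were higher than those of day 22 by 0.86 (SE 0.18, 95% interval 0.48 to 1.23, limma adjusted p = 0.000153, ratio of means 2.83), also under 2-fold. Without library 1012 the control difference was 1.13 (limma adjusted p = 0.00067), which is a call. Without library 984 the heat-stressed difference was 0.82 (limma adjusted p = 0.000233). With each library scaled to the same total (TPM), the differences were 0.49 (adjusted p = 0.128) in control and 0.41 (adjusted p = 0.0302) in heat-stressed glands.

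Against day 40 the difference of PGR in control glands at day 42 was 0.80 (SE 0.42, limma adjusted p = 0.147), with a ratio of means of 3.07. Without library 1012 it was 0.9998 (limma adjusted p = 0.0289), still short of 2-fold. The PGR locus was the same at days 22 and 42. Day 22 control glands differed from those of day 21 by -0.17 (SE 0.12, limma adjusted p = 0.658). Within library numbers of 1500 and above this difference was -0.23 (8 against 13 glands, permutation p = 0.0362, not adjusted).

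**Figure D2:**
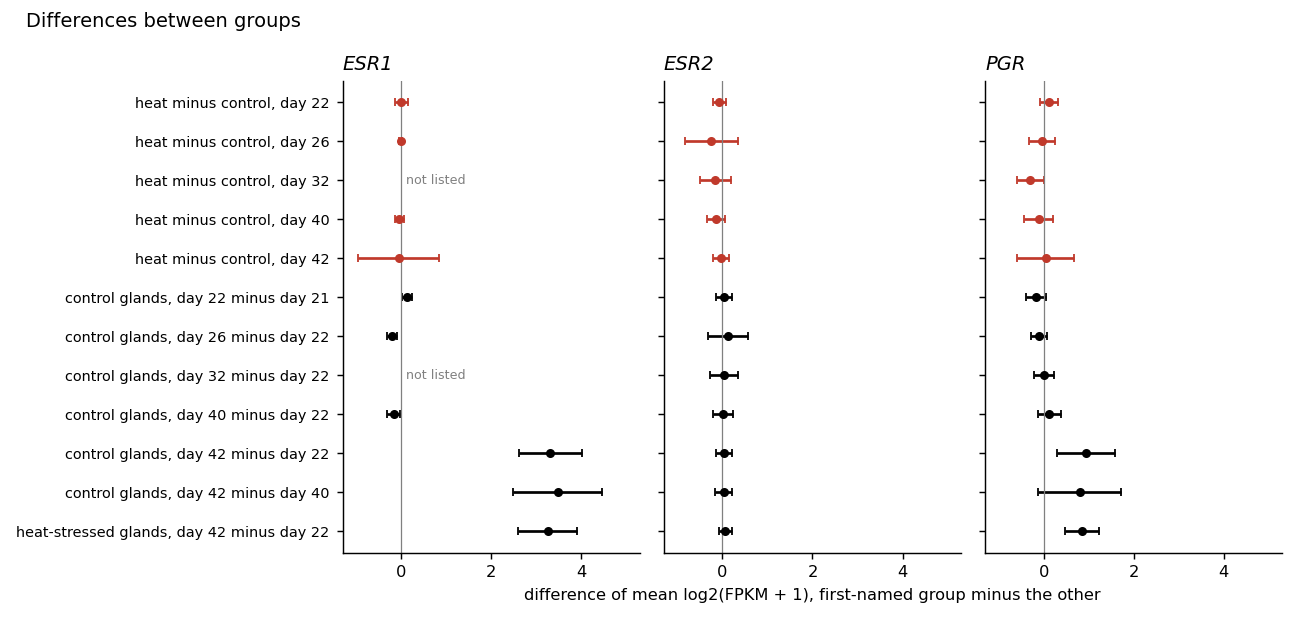
Differences in mean log2(FPKM + 1) of ESR1, ESR2 and PGR with 95% intervals, from limma fits with no filter on low values, for heat-stressed minus control glands within a day (red) and for the later minus the earlier day (black). The ESR1 differences of day 42 against days 22 and 40 lie above 3 and those of PGR between 0.80 and 0.93, while the intervals of every heat comparison include 0.

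ESR2 was at trace level in every group, day 42 included. Control glands averaged 0.147 ± 0.194 FPKM at day 21 (n = 15), 0.174 ± 0.185 at day 22 (n = 10), 0.409 ± 0.869 at day 26 (n = 6), 0.247 ± 0.442 at day 32 (n = 6), 0.173 ± 0.149 at day 40 (n = 5) and 0.200 ± 0.140 FPKM at day 42 (n = 10). Heat-stressed glands averaged 0.115 ± 0.105 FPKM at day 22 (n = 13), 0.0700 ± 0.0569 at day 26 (n = 5), 0.0738 ± 0.0591 at day 32 (n = 6), 0.0620 ± 0.111 at day 40 (n = 5) and 0.184 ± 0.242 FPKM at day 42 (n = 17). The high means of control glands at days 26 and 32 each came from a single bird, and no neighbors in the order of ESR2 means differed beyond their spread.

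Those birds were library 845, with 2.18 FPKM and 265 of the 283 ESR2 fragments of the day 26 control glands, and library 1315, with 1.14 FPKM and 82 of the 107 fragments of the day 32 control glands. The other control glands held 0.0389 to 0.0784 FPKM at day 26 and 0.0228 to 0.185 FPKM at day 32. Both birds also had the highest summed neuron markers of their group, 101 FPKM in library 845 and 810 FPKM in library 1315. Their part in the ESR2 values was not tested.

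None of the day comparisons of ESR2 passed a test. In control glands day 42 differed from day 22 by 0.04 (95% interval -0.13 to 0.21 in the limma fit with no filter, permutation p = 0.672) and from day 40 by 0.03 (-0.15 to 0.22, exact permutation p = 0.731). Heat-stressed glands of day 42 differed from those of day 22 by 0.07 (-0.09 to 0.22, permutation p = 0.407). Within the day 42 intervals the ESR2 difference was at most 0.22 on this scale, where the lower bound for ESR1 against day 22 was 2.65. The log2(FPKM + 1) scale understates the change of genes as low as ESR2. This bound therefore does not closely limit the ratio of its FPKM between days. The remaining permutation p-values of ESR2 between days were 0.692, 0.732, 0.823 and 0.972, for days 22 against 21 and 26, 32 and 40 against 22. Day 32 against day 22, a comparison with 7.9 percent of 8080 genes called, gave PGR a difference of 0.01 (-0.21 to 0.23), which with TPM was -0.33 (exact permutation p = 0.00562).

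At day 42 ESR2 stood higher in control libraries of higher number, short of the threshold after adjustment. Control glands numbered 1400 to 1500 had a median of 0.297 FPKM (0.137 to 0.434, n = 6) and those below 1100 a median of 0.0676 FPKM (0.0207 to 0.107, n = 4, exact permutation p = 0.00952, 0.0571 after adjustment over the 6 comparisons of this kind). The control libraries below 1100 listed 8920, 8893, 6709 and 8865 genes at 1 FPKM or more. Those numbered 1400 to 1500 listed 8964 to 9481. The share of all genes that differ likewise was not computed. The difference is therefore not read as particular to ESR2. Heat-stressed glands numbered 1400 to 1500 had a median of 0.222 FPKM (0.113 to 0.410, n = 5) and those below 1100 a median of 0.0227 FPKM (0 to 0.954, n = 10), with overlap (exact permutation p = 0.257, 0.309 after adjustment). As for ESR1, the values of 0 among these day 42 glands are not evidence of absence.

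Heat was compared with control within each day. At days 22 and 26 the test found 11 of 8256 genes (0.133 percent) and 53 of 9079 genes (0.584 percent). At days 32, 40 and 42 limma called 0 percent of 10282, 8831 and 9231 genes, with 609, 416 and 242 genes at an unadjusted p under 0.05. No receptor gene passed its test on any day.

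ESR1 in heat-stressed against control glands had permutation p-values of 0.959 at day 22, 0.472 (exact) at day 26 and 0.468 (exact) at day 40. At day 26 the heat-stressed glands had 0.0250, 0.0212, 0.0322, 0.0317 and 0 FPKM, against a lowest value of 0, a median of 0.0282 and a highest of 0.0565 FPKM in control glands. At day 40 the heat-stressed glands had 0.0506, 0.0275, 0.0332, 0 and 0.0329 FPKM, against 0.0227, 0, 0, 0.109 and 0.163 FPKM in control glands. These days held 5 ESR1 fragments each in heat-stressed glands, against 8 and 11 in control glands, so a fall or a small rise was not detectable at this depth. At day 42, where the level of ESR1 was higher, the difference was -0.05 (SE 0.42, 95% interval -0.90 to 0.80, limma adjusted p = 0.999), and it was also -0.05 without libraries 984 and 1012. The interval still covers changes close to 2-fold either way.

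PGR had heat against control permutation p-values of 0.205 at day 22, 0.848 (exact) at day 26 and 0.532 (exact) at day 40, and at day 42 a difference of 0.05 (SE 0.30, 95% interval -0.56 to 0.65, limma adjusted p = 0.999), which was -0.18 without libraries 984 and 1012. At day 26 the heat-stressed glands had 1.49, 0.577, 0.468, 0.610 and 0.581 FPKM, against a lowest value of 0.609, a median of 0.737 and a highest of 0.969 FPKM in control glands. Without the highest of these, library 1312, heat-stressed glands of day 26 were lower by 0.17 (exact permutation p = 0.0381). At day 40 the heat-stressed glands had 0.775, 1.13, 0.950, 0.728 and 0.923 FPKM, against 0.829, 0.948, 1.103, 0.698 and 1.84 FPKM in control glands.

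The PGR comparison nearest to the threshold was that of day 32. Heat-stressed glands had a lowest value of 0.261, a median of 0.426 and a highest of 1.04 FPKM, and control glands 0.648, 0.797 and 1.60 FPKM, a difference of -0.30 (exact permutation p = 0.0628). With a pseudocount of 0.1 FPKM the exact p was 0.0455, and leaving out each gland in turn moved it between 0.0195 and 0.130. The lowest pair of PGR values belonged to libraries 1307 and 1276, in which the 10 most abundant genes took 61.1 and 42.8 percent of all FPKM. The part of that share in the PGR values was not tested, and the limma fit with no filter gave an adjusted p of 0.80.

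ESR2 had heat against control permutation p-values of 0.378 at day 22, 0.831 (exact) at day 26, 0.571 (exact) at day 32, 0.222 (exact) at day 40 and 0.726 at day 42. At day 26 the heat-stressed glands had 0.156, 0.0606, 0.00916, 0.0903 and 0.0336 FPKM, and at day 40 they had 0, 0.0313, 0.0189, 0.260 and 0 FPKM, against 0, 0.123, 0.124, 0.217 and 0.402 FPKM in control glands of day 40. The smallest exact p that these group sizes allow was 0.00216 at days 26 and 32 and 0.00794 at day 40. The difference between heat-stressed and control glands also did not pass a test of change between days 22 and 42, with an interaction of -0.06 (SE 0.47) for ESR1 and -0.08 (SE 0.34) for PGR (limma adjusted p = 0.999 for both). That test called 0 percent of 8288 genes, with 159 at an unadjusted p under 0.05.

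Other receptors and proteins of steroid signaling were followed in 7 lists, in control glands of day 42 against day 22. Across all 8301 genes, 1064 were called higher and 1679 lower, with a median difference of -0.15. Of 7 other steroid receptors tested none was higher and 3 were lower (median -0.46). PGRMC1, a membrane-associated progesterone-binding protein, averaged 24.2 ± 10.3 FPKM at day 42 and 174 ± 33.7 FPKM at day 22 (difference -2.97, limma adjusted p = 1.27e-08). PAQR7, a membrane progesterone receptor, averaged 8.91 ± 2.18 and 50.1 ± 18.9 FPKM at the same days (difference -2.31, limma adjusted p = 2.70e-09), and ESRRG, an orphan receptor related to the estrogen receptors, 1.14 and 4.47 FPKM (difference -1.39). ESR1 was thus higher at day 42, while PGRMC1 and PAQR7 were lower. Their relatives PGRMC2 (40.8 FPKM at day 42 and 22.6 FPKM at day 22, difference 0.59, limma adjusted p = 0.147) and PAQR5 (2.64 and 1.86 FPKM, difference 0.34, limma adjusted p = 0.136) were not called.

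**Figure D3:**
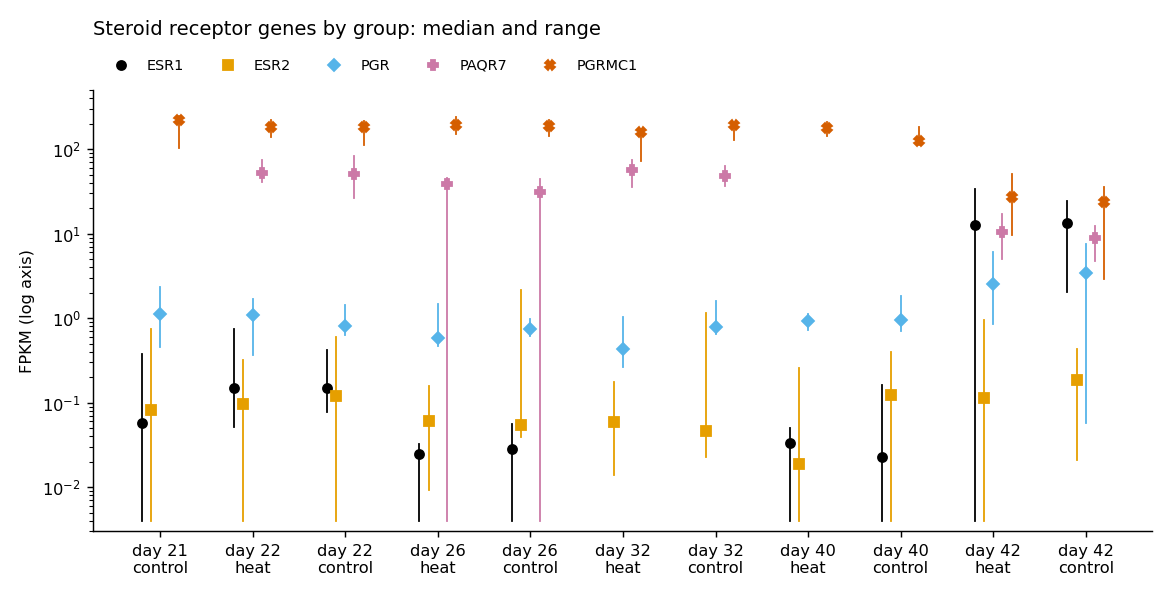
Median FPKM and range (log axis) of ESR1, ESR2, PGR, PAQR7 and PGRMC1 by day, heat-stressed glands left of control glands, values of 0 at the bottom edge, ESR1 without values at day 32 and PAQR7 at days 21 and 40. At day 42 the control mean of ESR1 is 13.3 FPKM, and those of PAQR7 and PGRMC1 are below their day 22 level.

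Few coactivators, corepressors and chaperones were called. None of 13 coactivators was called higher and 1 lower (median -0.10), which was NCOA4, a nuclear receptor coactivator (difference -1.001, limma adjusted p = 0.00275). None of 7 corepressors (median 0.06) and none of 5 genes of steroid synthesis and conversion (median -0.43) was called. Of 4 receptor chaperones 1 was higher (median -0.54), namely FKBP5, an immunophilin of steroid receptor complexes (difference 1.05, limma adjusted p = 7.19e-05). FKBP5 was also lower in control glands at day 22 than at day 21 (difference -1.02, limma adjusted p = 0.00394), so its level at day 42, 70.7 FPKM, stood beside 69.04 FPKM at day 21.

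Among 13 known estrogen-responsive genes 3 were called higher and 2 lower (median 0.10). PRL, the prolactin gene, averaged 7923 FPKM at day 42 and 2.61 FPKM at day 22 (difference 11.70), GATA3, a transcription factor, 6.16 and 0.637 FPKM (difference 2.06), and ADCY9, an adenylyl cyclase, 5.52 and 13.5 FPKM (difference -1.15). Of 7 transcription factors that partner with estrogen receptors 5 were higher and none lower (median 2.89), among them PITX1 (196 FPKM at day 42 and 0.257 FPKM at day 22) and POU1F1 (185 and 0.107 FPKM), both also anterior lobe markers, and GATA2 (14.3 and 1.04 FPKM), a factor of gonadotrophs and thyrotrophs in mice. These members rose together with the cell type markers, and the part of cell makeup in any of the differences was not tested.

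The marker lists showed how far the glands of these days differed. Between control glands of day 42 and day 22 all 6 tested anterior lobe hormones, all 5 gonadotroph genes and all 6 other anterior lobe genes were called higher. Of 5 myelin genes 4 were lower, as were both of 2 astroglial genes, 1 of 3 hypothalamic peptides and 1 of 2 leukocyte genes. Of 8 neuron genes 3 were higher and 2 lower, 1 of 4 housekeeping genes was higher, the single pineal gene tested was not called and no blood gene was listed. The gonadotroph sum was 10190 to 86751 FPKM in heat-stressed and 2877 to 57687 FPKM in control glands of day 42, against 0.294 to 12.4 FPKM and 1.28 to 8.76 FPKM at day 40.

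Under heat the steroid receptor chaperones were the only one of the 7 lists with called genes at days 22 and 26. HSP90AA1, the heat shock protein that holds steroid receptors ready for hormone, averaged 1322 ± 440 FPKM in heat-stressed and 729 ± 91.0 FPKM in control glands of day 22 (difference 0.80, limma adjusted p = 0.0284), and 1947 and 452 FPKM at day 26 (difference 2.25, adjusted p = 0.0311). HSPA8, a constitutive heat shock chaperone, averaged 1367 and 803 FPKM at day 22 (difference 0.71, adjusted p = 0.0392) and 1765 and 384 FPKM at day 26 (difference 2.11, adjusted p = 0.0195), again heat-stressed before control glands. DNAJA1, a co-chaperone, averaged 154 FPKM in heat-stressed and 76.0 FPKM in control glands of day 26 (difference 1.03, limma adjusted p = 0.0416). These were 2 of 4 chaperones tested at day 22 and 3 of 6 at day 26, all higher, beside 0.133 and 0.584 percent of all genes called.

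The chaperone calls depended on the processing. With no filter on low values the limma adjusted p at day 22 was 0.0769 for HSP90AA1 and 0.156 for HSPA8, and with library-number range added to the model it was 0.134 for both, so neither was a call. HSPA8 at day 22 also missed the call when scaled to the median gene (adjusted p = 0.0626) and with TPM (0.0958). At day 26 that model gave limma adjusted p-values of 0.415 for HSPA8 and 0.426 for HSP90AA1 and DNAJA1. HSPA8 was otherwise lost at day 26 only without library 1313 (limma adjusted p = 0.0615). Leaving out each gland in turn gave adjusted p-values of 0.00557 to 0.109 for HSP90AA1 and 0.0167 to 0.132 for DNAJA1, and both were lost with no filter (0.0525 and 0.0541), scaled to the median gene (0.0552 and 0.0810) and with TPM (0.0568 and 0.0676). The differences stayed between 0.67 and 0.83 at day 22 and between 0.90 and 2.59 at day 26.

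The receptors were next compared with each other from bird to bird, within days and with each group's mean removed, in 9 relations. ESR1 and ESR2 were correlated at day 22 (r = 0.59, rho = 0.67, n = 23, permutation p of r 0.0220 after adjustment), and r was 0.58 without the 2 libraries farthest from the median of ESR1. At day 21 r was 0.86 but rho 0.40 (n = 15, adjusted permutation p of r 0.0127), and without libraries 1560 and 1571 r was 0.19, so that relation rests on those libraries. At day 42 r was 0.30 for ESR1 and ESR2, 0.22 for ESR1 and PGR and 0.28 for ESR2 and PGR, and none of the 7 remaining relations had an adjusted permutation p of r below 0.244 or of rho below 0.149. The lowest for rho was that of ESR2 and PGR at day 42, whose r was 0.51 without libraries 1008 and 1433.

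ESR2 went with neuron markers from bird to bird at days 21, 22, 32 and 40. The correlation with the summed level of 8 listed neuron genes was r = 0.82 at day 21 (rho = 0.70, n = 15, adjusted permutation p = 0.00394), 0.80 at day 22 (rho = 0.77, n = 23, 0.00136), 0.74 at day 32 (rho = 0.71, n = 12, 0.0155) and 0.90 at day 40 (rho = 0.95, n = 10, 0.00238). Without the 2 libraries farthest from the median neuron level r was 0.59, 0.69, 0.78 and 0.79 on these days. The adjusted permutation p-values here are those of r, and those of rho were 0.0679, 0.00204, 0.107 and 0.00476. At day 26 r was 0.67 (n = 11, adjusted permutation p = 0.0864) and 0.11 without the 2 farthest libraries, and at day 42 r was 0.13 (n = 27, adjusted permutation p = 0.757) and -0.07 without libraries 984 and 1012. The day 42 values include ESR2 values of 0, which are not evidence of absence in that table. These are 6 of 68 relations of receptors with 4 marker lists, chosen after the values were seen, of which 16 had an adjusted p of r under 0.05 and 2, ESR2 with neurons at days 22 and 40, an adjusted p of rho under 0.05. Neurons were not the only list involved. At day 22 ESR2 also went with anterior lobe hormones (r = 0.67) and gonadotroph markers (r = 0.61). Their adjusted permutation p-values of r were 0.00555 and 0.0191, and those of rho 0.0639 and 0.122. The gonadotroph list was FSHB, LHB, CGA, GNRHR, NR5A1 and FOXL2. It shares CGA and FSHB with the anterior lobe list, and CGA also serves thyroid-stimulating hormone. Of 5 listed gonadotroph genes 1 reached a mean of 1 FPKM at day 22. The gonadotroph sum is therefore not specific to gonadotrophs.

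**Figure D4:**
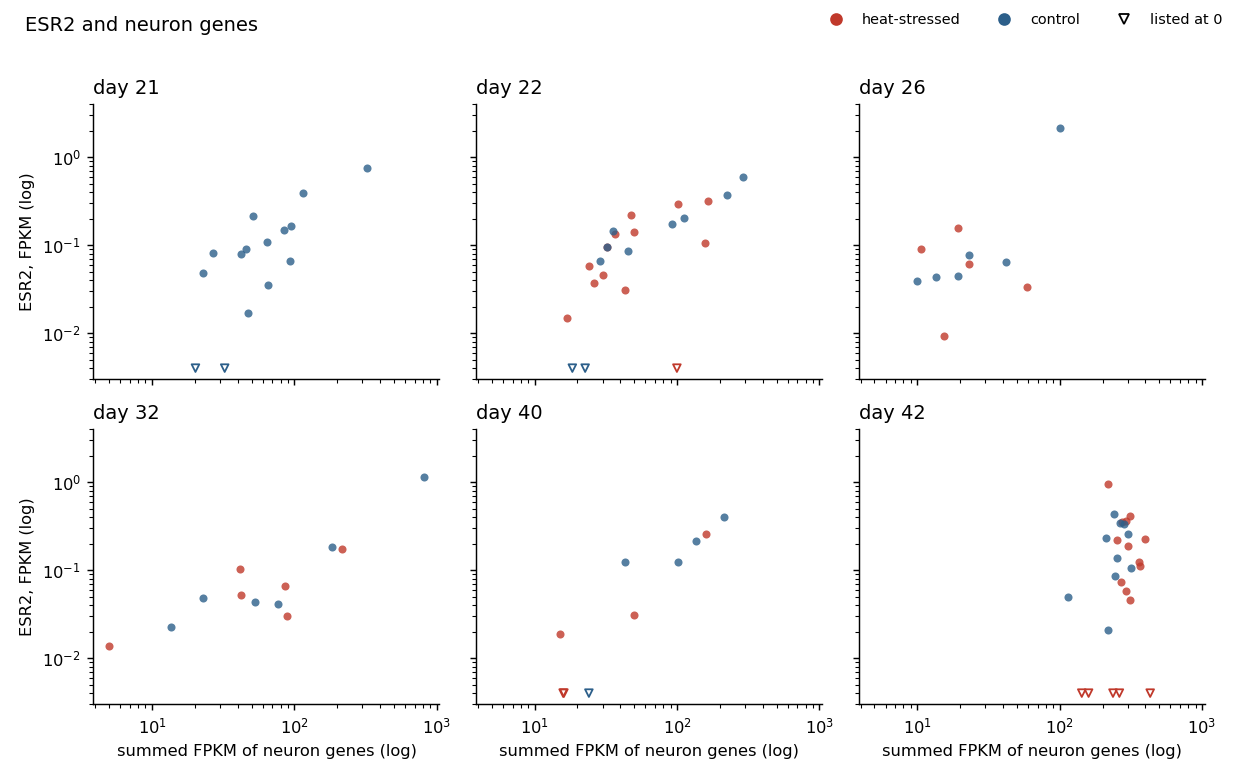
ESR2 against the summed FPKM of 8 neuron marker genes (log axes), 1 panel per day, 1 point per library, heat-stressed and control glands in different colors. At days 21, 22, 32 and 40 libraries with more neuron RNA tend to have more ESR2 (r of 0.74 to 0.90), and at day 42, where every library has at least 115 FPKM of neuron markers, they do not (r = 0.13).

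For ESR1 the same neuron sum gave r = 0.73 at day 21, 0.58 at day 22 and 0.69 at day 42 (adjusted permutation p = 0.0201, 0.0201 and 0.00306, n = 15, 23 and 27), while the adjusted p-values of rho were 0.186, 0.111 and 0.122. Without the 2 farthest libraries these r values were 0.43, 0.60 and 0.40, the last without libraries 984 and 1012. At days 26 and 40 the neuron r was -0.16 and 0.30, and neither passed. At days 21 and 22 ESR1 also went with anterior lobe hormones (r = 0.63 and 0.55) and gonadotroph markers (r = 0.61 and 0.58). Their adjusted permutation p-values of r were 0.0369, 0.0297, 0.0487 and 0.0216, and no adjusted p of rho was under 0.05. These r values fell to 0.58, 0.45, 0.56 and 0.18 without the 2 farthest libraries. At days 26, 40 and 42 r with these lists was -0.13 to 0.38, and none passed. PGR at day 42 went with gonadotroph markers (r = 0.66, rho = 0.52, n = 27, adjusted permutation p of r 0.00306 and of rho 0.0679), with r = 0.50 without the 2 farthest libraries, of which library 1012 was 1. At that day PGR also went with the neuron sum (r = 0.48) and the myelin sum (r = 0.49, adjusted permutation p of r 0.0486 for both). Without the 2 farthest libraries these r values were 0.48 and 0.56. With anterior lobe hormones, which share CGA and FSHB with the gonadotroph list, PGR had r = -0.06 at day 42. On the other days r of PGR with gonadotroph markers was -0.35 to 0.55, and none passed.

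The genes most like ESR1 across the 27 glands of day 42 were PEX7, D2HGDH and VEZT (r = 0.90, 0.89 and 0.89 among 9222 genes), and those most opposed were FABP1, RNF122 and BABAM1 (r = -0.77, -0.70 and -0.65). These values leaned on the same libraries, since without 984 and 1012 the first 3 had r = 0.78, 0.75 and 0.74, and the genes most like ESR1 in the remaining 25 glands were MYRIP, RNF8 and VPS4B (r = 0.86, 0.85 and 0.84). MYRIP had r = 0.61 with ESR1 at day 21 and 0.79 at day 22, while its r over all 27 glands of day 42 was 0.33. The genes most opposed to ESR1 in the 25 glands were LOC771917, LOC101747260 and HSPB1 (r = -0.72, -0.66 and -0.60), of which LOC771917 had r = 0.80 at day 21. The median ESR1 count was 2 fragments per library at day 21. At day 22 it was 5.5 in control and 6 in heat-stressed glands. Whether the r values of days 21 and 22 rest on single libraries was not tested, so they are not read as recurrence.

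The genes most like PGR at day 42 were PDHB, NUDT21 and SLC25A33 (r = 0.81, 0.81 and 0.80), and those most opposed were LOC101751028, CLDN9 and HMGA1 (r = -0.69, -0.65 and -0.62). Without libraries 984 and 1012 their r values were 0.75, 0.75 and 0.74, and -0.63, -0.66 and -0.59. At day 21 PDHB and NUDT21 had r = -0.25 and -0.10 with PGR, and so did not keep the direction of day 42. SLC25A33 (r = 0.54), LOC101751028 (-0.42), CLDN9 (-0.48) and HMGA1 (-0.57) kept it. At day 22 r was 0.17, 0.47 and 0.15 for PDHB, NUDT21 and SLC25A33. It was 0.035, -0.41 and -0.15 for LOC101751028, CLDN9 and HMGA1. Whether these r values rest on single libraries was not tested. These correlations are descriptions over birds of 1 day with group means removed, and libraries share depth and cell makeup.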

How the data were processed

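Glands labelled pituitary from 100 birds were sequenced by the authors, and 98 of them had a column of values. A further 3 columns matched no labelled sample and were not used, and 2 samples had no column. The submitters' processing notes name Bowtie, TopHat and Cufflinks, and the study aligned reads to Gallus gallus version 4 (galGal4). Tool versions are not given in the sources used here. The deposited values are FPKM, which the authors computed per gene and library, with 1 table per day. Scaling between libraries is not stated. No read totals were used, so depth is known only as relative depth from the steps between low values, with a lowest library at 0.667, 0.507, 0.456, 0.321 and 0.684 of the deepest at days 21, 22, 26, 32 and 40. At day 42 a common step was found in 8 of 27 libraries only. Fragment numbers cover counting error only.

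Two-group comparisons used limma 3.58.1 in R 4.3.3 on log2(FPKM + 1) with a mean trend, over genes whose mean reached 1 FPKM in the compared libraries, with Benjamini-Hochberg adjustment over all genes tested. Calls needed an adjusted p under 0.05 and, between days, at least 2-fold on that scale. A member below that mean had a two-sided permutation test, exact where stated and otherwise with 100000 resamples. Of 34 pairs of a member and a comparison, 9 were tested by limma and 25 by permutation, of which 3 had p under 0.05. The limma step was also tested on simulated data. Other steps ran in Python 3.11.15 (scipy 1.17.1, pandas 2.3.3, numpy 2.4.6, matplotlib 3.10.9).

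Alternatives were a pseudocount of 0.1 FPKM, no filter, each library scaled to the median gene, TPM, no minimum fold, permutation tests, the range of library numbers (below 1100, 1200 to 1400, 1400 to 1500, 1500 and above) as covariate, and omission of each library of small groups in turn. Named genes were the members, up to 3 called genes per steroid list with the smallest adjusted p, the 3 genes most and least correlated with a member at day 42, and markers. ESRRG and the lists of genes like ESR1 without libraries 984 and 1012 were named after their values were seen. The members and gene lists were chosen with earlier results of these data known. A part of the genes of these lists is not reported here.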

Additional observations from a re-analysis of the deposited data

Results flagged for a closer look

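Within groups of 4 to 10 libraries, 5 of 22 member and group pairs had 1 gland far from the rest by Dixon's 95% criterion. About 1 in 20 groups of normally distributed values pass it, and FPKM values near 0 need not be so distributed. All 5 were the highest of their group, so their number is not read as an excess over chance. ESR2 had 2.18 FPKM in control library 845 of day 26, 1.14 FPKM in control library 1315 of day 32 and 0.260 FPKM in heat-stressed library 1575 of day 40, each far above its group. Each of these 3 libraries also had the highest summed neuron markers of its group, with 101, 810 and 159 FPKM. PGR had 1.49 FPKM in heat-stressed library 1312 of day 26 and 1.60 FPKM in control library 1309 of day 32, each the highest of its group. No cause was tested.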

How the results depend on the processing

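ESR1 was called in the 3 comparisons of day 42 under every alternative run. No heat comparison of a receptor that limma tested was called under any alternative. Of the alternatives for single genes and correlations, 293 kept direction and, for single genes, side of the threshold. A further 10 passed it newly, 6 no longer passed it and 25 turned direction. For correlations without the 2 farthest libraries only the direction of r was compared. That of ESR1 and ESR2 at day 21 therefore counts as kept, although r fell from 0.86 to 0.19. Those that turned had small differences and no call in the original fit. They were ESR1 for heat at day 22 (-0.020 with a pseudocount of 0.1 FPKM, -0.0017 with TPM) and day 42 (0.0030 with the range as covariate), and PGR for heat at day 42 (-0.18 without libraries 984 and 1012). Leaving out library 845 gave ESR2 0.020 for heat at day 26 and -0.14 for day 26 against 22. Leaving out 1431 gave PGR 0.021 for heat at day 26, leaving out 1579 gave PGR 0.0057 for heat at day 40, and leaving out 1315 gave ESR2 0.0079 for heat at day 32. For day 32 against 22, ESR2 was -0.028 with a pseudocount of 0.1, -0.047 with TPM and -0.12 without 1315, and PGR was -0.33 with TPM (exact permutation p = 0.00562) and -0.082 without 1309. PGR at day 26 against 22 was 0.086 scaled to the median gene. For day 40 against 22, ESR2 was -0.024 with TPM, -0.011 without 1578 and -0.062 without 1579. Day 42 gave ESR2 -0.081 against day 22 and -0.058 against day 40 with TPM, -0.023 against day 40 without 1279, and -0.0092 in heat-stressed glands with TPM. The PGR interaction was 0.065 with a pseudocount of 0.1 and 0.028 scaled to the median gene, and r of ESR1 and PGR at day 21 was -0.11 without the 2 farthest libraries. The cause was not tested. PGR at day 26 against 22 kept its direction and passed newly with TPM (-0.30, exact permutation p = 0.00212). TPM moved the median of all genes to -0.81 for control and -0.80 for heat-stressed glands of day 42 against 22, and to -0.86 for day 32 and -0.73 for day 26 against 22. Counts of called genes changed as follows. Heat at day 22 gave 1 without a filter, 6 scaled to the median gene, 7 with TPM and 1 with the range as covariate, and at day 26 it gave 28, 23 and 6 for the last 3 of these. Leaving out each library gave 17 to 45 for heat at day 26, 0 to 1 at days 32 and 40, and 11 to 24 for day 40 against 22. Day 22 against 21 gave 3 scaled to the median gene, 18 with the range and 20 with no minimum fold. Day 26 against 22 gave 1429 with a pseudocount of 0.1, 2315 with TPM and 4030 with no minimum fold, and day 32 against 22 gave 3101 with TPM and 3425 with no minimum fold. Day 40 against 22 gave 37 with a pseudocount of 0.1, 59 with TPM, 85 with the range and 98 with no minimum fold. With no minimum fold day 42 against 22 gave 4404 in control and 4986 in heat-stressed glands. The interaction gave 1 without libraries 984 and 1012. Leaving out libraries 984 and 1012, comparing within ranges and the marker correlations were chosen after seeing the data. No paired analysis was possible because library numbers are unique to each bird and are not shared between groups.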
